A study of Homo sapiens with 18 samples.

Results

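The expression of 10 immediate early genes was followed across the 6 conditions of an RNA-Seq study of GPS2 and AKT in MDA-MB-231 cells, a human triple negative breast cancer line. They are EGR1, EGR2 and EGR3, the FOS genes FOS, FOSB and FOSL1, the JUN genes JUN and JUNB, and ATF3 and ARC. These 10 genes of the 57448 gene rows in the count table were chosen by symbol because EGR1 and ARC had risen with the AKT inhibitor MK2206 in the same libraries. The response of these genes to MK2206 is therefore given as a description without a test. Tests are given for comparisons among the untreated lines, and between the treated pools, which were not used as contrasts in the choice. The untreated GPS2 knockout libraries did take part in the contrast with MK2206, whereas the WT and myrAKT libraries did not.

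The 6 conditions had 3 libraries each. Parental cells (WT) were compared with KO1 and KO2, CRISPR-Cas9 knockout lines made with separate sets of guides against GPS2, a subunit of nuclear corepressor complexes. KO1 and KO2 were selected in puromycin and kept as mixed pools that were not cloned. The myrAKT line received a retrovirus for myristoylated, membrane-bound and thus constitutively active AKT1. KO1+MK and KO2+MK are the same knockout pools after 4 h in 10 µM MK2206, which binds AKT outside the site for ATP. No MK2206-treated WT or myrAKT cells were analysed here, and neither a vehicle for the untreated cells nor an empty-vector line is named. The labels do not say whether the 3 libraries of a condition came from separate cultures, so the p-values measure only the spread between libraries.

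Immediate early genes are transcribed within minutes of a growth factor, stress or calcium signal, without new protein synthesis, and most of their messages are short-lived. The kinases ERK, JNK and p38 act on factors already present at their promoters: serum response factor (SRF) with its ETS partners at the CArG box, and CREB and ATF proteins at the cyclic AMP response element. FOS and JUN proteins pair through leucine zippers to form AP-1, EGR proteins are zinc finger activators held back by NAB corepressors, and ATF3 is a stress-induced member of the ATF family. ARC is not a transcription factor but a capsid-like protein of synapses whose gene is switched on in the same early wave. In triple negative cells FOSL1 (FRA-1) is known as a steadily expressed AP-1 subunit.

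The sequences before the start sites carry elements through which these signals act. Short windows of 4 genes are shown because they differ in which of the searched elements they hold. Windows of 300 bases, from 250 bases before to 50 bases after the RefSeq start (GRCh38.p14), were found for EGR1, EGR2, FOS, FOSB, JUN, JUNB and ATF3, 7 of the 10 genes, with 10 windows in all. Capitals mark matches, on either strand, to the CArG box, to TGACGT, the core of the cyclic AMP response element, or to the related 8 letters TGACNTCA. The windows are chr5:138465229-138465528 for EGR1 and chr14:75278578-75278877 for FOS. They are chr19:45467746-45468045 for FOSB and chr1:58783998-58784297 for JUN. The first 3 are on the plus strand and JUN on the minus strand, and each reads 5′ to 3′ along its gene.
EGR1: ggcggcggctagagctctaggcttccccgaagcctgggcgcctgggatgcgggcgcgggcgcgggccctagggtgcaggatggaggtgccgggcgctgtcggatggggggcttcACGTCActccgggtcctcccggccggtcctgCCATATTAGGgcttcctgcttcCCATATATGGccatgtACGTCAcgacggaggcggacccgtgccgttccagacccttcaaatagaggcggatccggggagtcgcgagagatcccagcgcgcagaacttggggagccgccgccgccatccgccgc
FOS: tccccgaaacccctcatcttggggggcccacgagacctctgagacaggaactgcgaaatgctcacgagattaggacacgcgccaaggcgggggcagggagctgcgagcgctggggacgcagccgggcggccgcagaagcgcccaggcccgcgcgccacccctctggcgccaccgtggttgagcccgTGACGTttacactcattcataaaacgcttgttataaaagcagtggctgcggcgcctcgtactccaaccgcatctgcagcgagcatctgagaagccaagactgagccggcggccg
FOSB: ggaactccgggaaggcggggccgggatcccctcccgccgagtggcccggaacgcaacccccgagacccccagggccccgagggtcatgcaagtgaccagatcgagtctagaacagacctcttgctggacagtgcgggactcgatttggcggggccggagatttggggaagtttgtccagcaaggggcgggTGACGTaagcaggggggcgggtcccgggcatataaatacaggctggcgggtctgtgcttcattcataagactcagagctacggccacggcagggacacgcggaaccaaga
JUN: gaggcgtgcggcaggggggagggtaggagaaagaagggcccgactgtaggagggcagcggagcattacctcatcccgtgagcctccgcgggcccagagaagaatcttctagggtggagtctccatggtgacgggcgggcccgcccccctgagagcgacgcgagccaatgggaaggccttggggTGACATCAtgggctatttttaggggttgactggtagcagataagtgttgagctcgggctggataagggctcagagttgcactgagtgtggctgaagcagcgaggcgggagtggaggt

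EGR1 had a CArG box starting 105 bases and another 83 bases before its start, with TGACGT matches at 136 and 67 bases. One of the 3 EGR2 windows, at chr10:62816317-62816616, held the same CArG letters as the nearer EGR1 box, CCATATATGG, 71 bases before its start, and a TGACGT match at 55 bases. The FOS and FOSB windows each held 1 TGACGT match, 64 and 60 bases before the start. JUN had TGACATCA at 67 bases and ATF3 had the same 8 letters at 123 bases in 1 of its 2 windows, and the JUNB window held no match. The CArG box was found in 1.29% of the 35116 RefSeq windows of this length, TGACGT in 7.98% and TGACNTCA in 7.72%. None of the searched windows of members held the full element TGACGTCA (1.85% of all windows), the AP-1 site TGANTCA (7.71%) or the EGR site GCGTGGGCG (0.795%). TGACGTCA contains TGACGT and is also a match to TGACNTCA. TGACGT and TGACNTCA were added to the search after the windows had been read. A match describes letters and is not evidence that a factor was bound there.

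Between 23419198 and 39319910 reads were counted on genes per library. The 6 treated libraries were the shallowest, with 23419198 to 29939536 reads against 30287210 to 39319910 in the 12 untreated libraries. GPS2 messenger RNA was 4.57 ± 0.278 CPM in WT (CPM is a gene's reads scaled to a common library size; mean ± SD, n = 3 here and below unless stated), 4.50 ± 0.0364 in KO1 and 6.04 ± 0.123 in KO2. A count over the whole gene does not show an edit within it, so these values do not check the knockout labels. AKT1 was 135 ± 1.00 CPM in WT and 231 ± 12.0 in myrAKT. The mesenchymal and basal markers VIM, CD44, AXL, CAV1, MMP14 and EGFR were high in all libraries, each at 331.6 CPM or above, and ESR1 stayed at or below 1.38 CPM, PGR at or below 0.137 and CDH1 at or below 0.128. ERBB2 (79.9 to 93.9 CPM), KRT8 (239 to 364) and KRT18 (149 to 284), fixed as low markers, were present. In these bulk libraries fewer cells with a message and less of it per cell cannot be told apart.

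Levels between genes were compared as CPM per kb of exon. In WT the order was FOSL1 (166 ± 3.97), JUN (41.0 ± 1.99), JUNB (21.6 ± 1.60), EGR1 (4.71 ± 0.458), ATF3 (1.97 ± 0.103), FOS (1.41 ± 0.251), FOSB (0.406 ± 0.115), ARC (0.208 ± 0.0152), EGR2 (0.118 ± 0.00888) and EGR3 (0.0516 ± 0.0266). Of the summed level per kb of the 5 FOS and JUN genes, FOSL1 made up 72.1% ± 1.503, JUN 17.8% ± 0.933 and JUNB 9.37% ± 0.645 in WT, and FOS no more than 0.742% in any WT library. This sum leaves out the other family genes FOSL2 and JUND, which are no members and were at 305 and 79.7 CPM in WT, so it does not give the make-up of AP-1 messages in these cells.

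**Figure D1:**
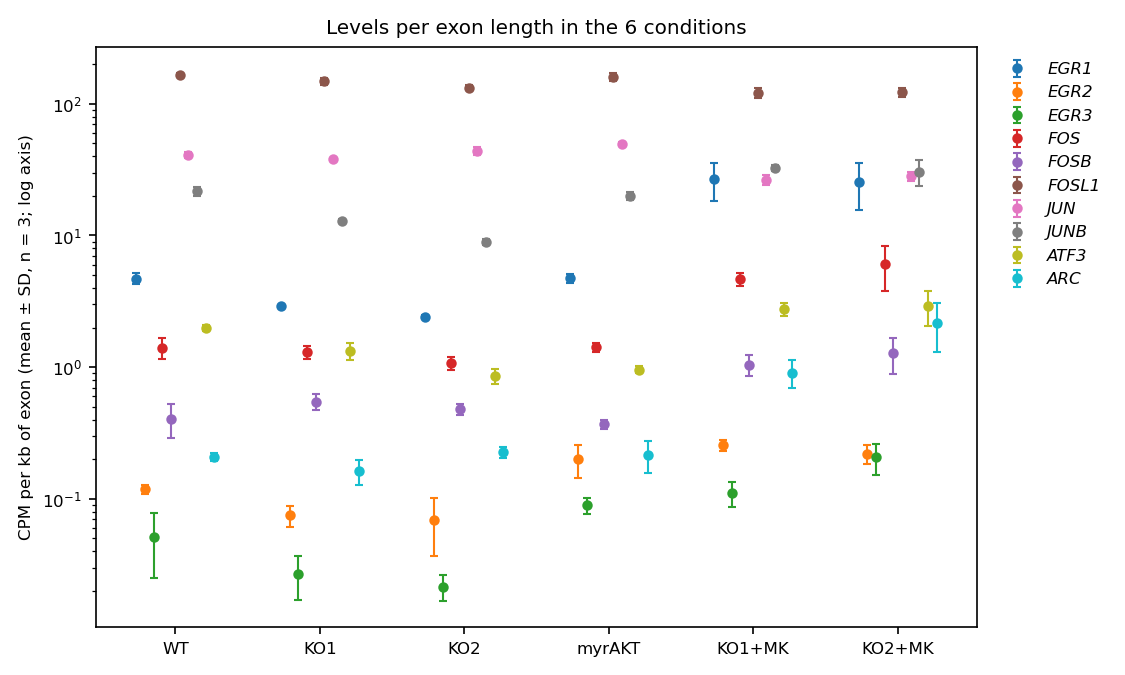
Level of each gene in CPM per kb of exon (log axis) in the 6 conditions, with points for the mean and bars for the SD of 3 libraries, shifted sideways so that they can be told apart. FOSL1 is highest in every condition, and in the treated pools JUNB and EGR1 reach the level of JUN.

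EGR1, the best known of the zinc finger activators, was lower in both knockout pools than in WT. WT libraries had 13.2, 16.1 and 15.05 CPM, KO1 libraries 9.25, 8.85 and 9.11 CPM, and KO2 libraries 7.59, 7.76 and 7.44 CPM. The 3 groups did not overlap, and KO2 was the lowest. In KO1 against WT the log2 fold change was -0.72 (SE 0.0792) with an adjusted p of 1.41e-06, and in KO2 against WT it was -0.97 (SE 0.0836) with an adjusted p of 3.22e-07, both in edgeR's quasi-likelihood test with Benjamini-Hochberg adjustment over 15587 genes. With both pools together the fold change was 1.80 downward (log2 -0.85, SE 0.0901, adjusted p 1.08e-05). EGR1 was picked for its rise from these untreated knockout libraries, which favours a low value in them, so these p-values are not independent of the choice. When all 18 libraries entered 1 edgeR fit, EGR1 kept its direction but lost these calls, with adjusted p of 0.0161 in KO1, 0.00205 in KO2 and 0.00139 in both. The 3 myrAKT libraries had 13.6, 15.7 and 15.2 CPM and overlapped WT fully, and the log2 difference there was -0.0018 (SE 0.0855, adjusted p 0.988).

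EGR2, a relative with a role in myelination and lymphocytes, and EGR3 were counted in single or low double digits and did not pass the filter of 1 CPM in 3 libraries. EGR2 had 15 to 16 counts per library in WT (mean 0.438 CPM), 8 to 12 in KO1, 5 to 13 in KO2 and 21 to 30 in myrAKT. EGR3 had 6 to 15 counts in WT (mean 0.260 CPM), 4 to 7 in KO1, 3 to 5 in KO2 and 14 to 17 in myrAKT. Mean levels of both genes were thus below WT in the knockout pools and above it in myrAKT, by 1.70-fold for EGR2 (0.743 CPM) and 1.73-fold for EGR3 (0.450 CPM). In an edgeR fit without the filter none of these differences passed, with adjusted p of 0.119 for EGR2 and 0.231 for EGR3 in myrAKT and of 0.0671 or more in the knockout pools.

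FOS, the prototype of the family, was lowest in KO2. WT had 4.11, 5.41 and 3.96 CPM, KO1 had 4.69, 3.95 and 3.79 CPM, and KO2 had 3.87, 3.28 and 3.14 CPM. KO1 overlapped WT and KO2 did not, but the log2 difference of KO2 from WT, -0.40 (SE 0.143), missed the threshold with an edgeR adjusted p of 0.0243. The myrAKT libraries, with 4.19, 4.88 and 4.49 CPM, lay within the WT range. FOSB, which also gives rise to the stable neuronal isoform ΔFosB, had 1.67 to 2.94 CPM in WT, 2.58 to 3.41 in KO1, 2.46 to 2.97 in KO2 and 1.93 to 2.23 in myrAKT, and no difference from WT passed (adjusted p of 0.0646 or more in edgeR).

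FOSL1, the member with the highest level per kb, was slightly lower in the knockout pools. WT had 320.2, 306 and 315 CPM, KO1 had 299, 266 and 271 CPM and KO2 had 242, 245 and 263 CPM, so that neither pool overlapped WT. The log2 fold change was -0.19 in KO1 (SE 0.0405, edgeR adjusted p 0.000882) and -0.33 in KO2 (SE 0.0372, adjusted p 3.57e-06). Both were under the minimum fold change of 1.5, at 1.14 and 1.26. The myrAKT libraries, with 301, 322 and 282 CPM, overlapped WT (adjusted p 0.295).

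JUNB, which often opposes JUN in the control of proliferation, was, of the 8 tested members, the one that differed most between WT and both knockout pools together. WT had 36.5, 39.8 and 42.4 CPM, KO1 had 24.3, 22.8 and 23.8 CPM and KO2 had 16.7, 15.2 and 16.9 CPM. The 3 groups were separate. The log2 fold change was -0.76 in KO1 (SE 0.0561, edgeR adjusted p 2.34e-08) and -1.29 in KO2 (SE 0.0634, adjusted p 2.14e-09), a fold of 1.70 and 2.45 downward. The difference between the pools, 0.53 on the log2 scale (SE 0.0542, KO1 higher), had an adjusted p of 1.16e-06, with a fold of 1.44 that is under the minimum. In myrAKT JUNB had 34.4, 39.3 and 35.4 CPM and overlapped WT (log2 -0.13, adjusted p 0.114). JUNB shares 259 exon bases, 14.2% of its exon length, with HOOK2 on the other strand, and whether the counting used strand is not given in the sources used here.

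JUN, the partner of FOS proteins in AP-1, moved little among the untreated lines. WT had 141, 156 and 149 CPM, KO1 had 141, 133 and 138 CPM, KO2 had 149.97, 155 and 171 CPM and myrAKT had 182, 186 and 174 CPM. The myrAKT libraries lay above those of WT, by 1.21-fold (log2 0.28, SE 0.0471, edgeR adjusted p 0.00018), which is under the minimum fold change. KO1 lay below KO2 by 0.22 on the log2 scale (SE 0.0405, adjusted p 0.000498), a fold of 1.16. In the pooled knockout comparison the log2 difference was -0.024 (SE 0.0700, adjusted p 0.788).

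ATF3, a repressor or activator induced by stress and growth signals, was lower in myrAKT as well as in the knockout pools. WT had 8.31, 7.86 and 7.48 CPM and myrAKT had 3.85, 4.07 and 3.58 CPM, a fold of 2.07 downward (log2 -1.05, SE 0.103, edgeR adjusted p 9.67e-07). KO2, with 3.72, 2.91 and 3.68 CPM, fell by 1.20 on the log2 scale (SE 0.105, adjusted p 3.66e-07). KO1, with 4.64, 6.22 and 5.09 CPM, lay between WT and KO2 without overlapping either. Its log2 fold change of -0.59 (SE 0.107, adjusted p 0.000219) lay just past the minimum fold change of 1.5, and the call was lost without WT replicate 1 (log2 -0.55), WT replicate 2 (-0.57), KO1 replicate 1 (-0.48) or KO1 replicate 3 (-0.56). It was also lost by DESeq2 (-0.58), with DESeq2 size factors in edgeR (-0.58), without the filter (-0.55), with the filter of 10 counts in every library (-0.58) and with all 18 libraries in 1 fit (-0.57). Both pools in 1 group gave -0.87 (SE 0.185) with an adjusted p of 0.00176, outside the threshold, and 0.000228 without KO1 replicate 2. An edgeR fit of both pools with KO1 and KO2 as separate groups called ATF3, at -0.90 (adjusted p 1.86e-07).

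ARC was counted 14 to 28 times per untreated library. Its means were 0.621 CPM in WT, 0.488 in KO1, 0.678 in KO2 and 0.646 in myrAKT, and no difference from WT passed (edgeR adjusted p of 0.213 or more). ARC passed the filter on low values through the treated libraries.

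**Figure D2:**
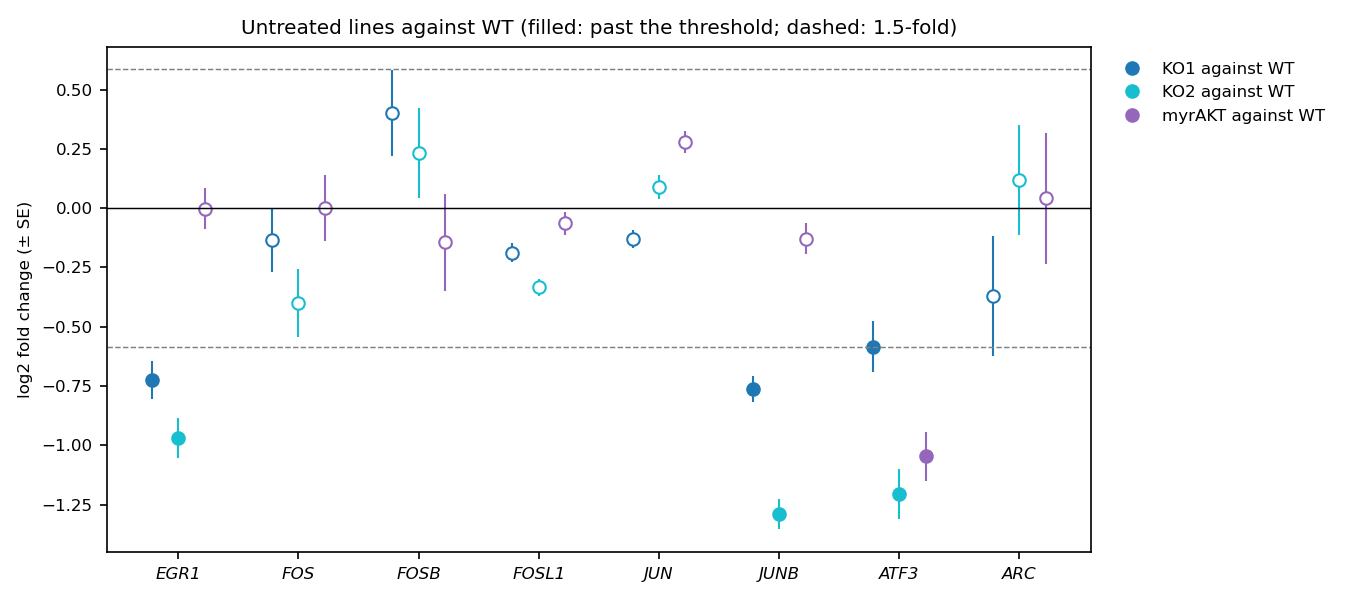
Log2 fold change of the 8 tested genes in KO1, KO2 and myrAKT against WT, with bars for the standard error of edgeR's fit and dashed lines at 1.5-fold. EGR1 and JUNB lie below the lower line in both knockout pools and near 0 in myrAKT, whereas ATF3 is down in all 3 lines.

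Counted together, 2 of the 8 tested members, EGR1 and JUNB, were downregulated in KO against WT with the thresholds set at 0.001 for the adjusted p and 1.5 for the fold change in edgeR, and none was upregulated (at an unadjusted p under 0.05, 4 were lower and none higher, and DESeq2 called 3 lower and none higher). The count holds EGR1, for which the knockout libraries also served the choice. Of all 15587 tested genes 12.7% passed in this comparison, 8.59% downward and 4.07% upward. EGR1, JUNB and ATF3 were downregulated in KO1 (13.9% of all genes passed) and in KO2 (16.7%). In myrAKT 1 of 8, ATF3, was downregulated, with 13.8% of all genes past the threshold, 8.83% downward and 4.94% upward. The median log2 fold change of the 8 genes was -0.27 in KO and -0.033 in myrAKT, beside -0.0029 and 0.016 over all tested genes. No member passed in edgeR in KO1 against KO2, where 2.62% of genes did. At an unadjusted p under 0.05, 5 members were higher and 1 lower in KO1, and DESeq2 called 1, ATF3, higher (log2 0.62 in edgeR, SE 0.130, adjusted p 0.00137). These comparisons use the same 3 WT libraries, so their results are not independent of each other, and the difference between the effects of the knockout and of myrAKT was not tested. Of 5 markers of other cell types (PTPRC, CD3E, PECAM1, ALB and ACTA2), the summed level was 7.25 to 7.73 CPM in WT, 3.46 to 3.63 in KO1, 5.43 to 6.45 in KO2 and 27.4 to 28.9 in myrAKT. The endothelial marker PECAM1, at 19.9 to 22.5 CPM in myrAKT against 3.38 to 3.71 in WT, made up most of this, while PTPRC, CD3E and ALB stayed at or below 0.147, 0.0360 and 0.0541 CPM in every library. Their part in the member levels was not tested.

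**Figure D3:**
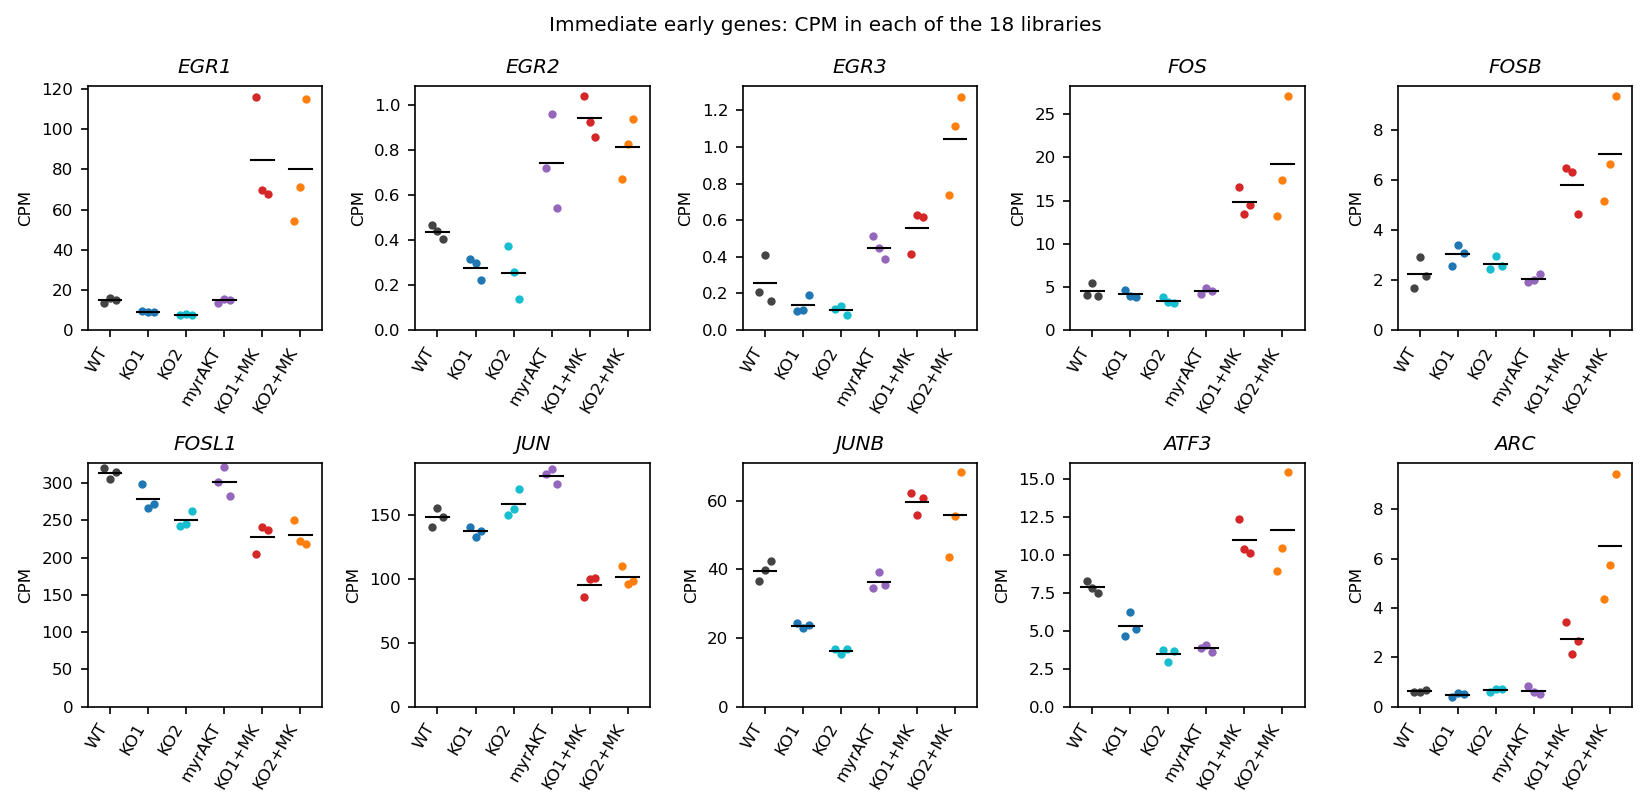
CPM of each of the 10 genes in the 18 libraries, with a point per library and a line at the mean of the 3 libraries of a condition. EGR1, FOS, FOSB, JUNB, ATF3 and ARC are highest in the KO1+MK and KO2+MK libraries, whereas JUN is lowest there and FOSL1 in KO2+MK overlaps untreated KO2.

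With MK2206, EGR1 went from 8.33 ± 0.822 CPM in the 6 untreated knockout libraries to 82.3 ± 26.4 CPM in the 6 treated libraries, a log2 difference of 3.33. The KO1+MK libraries had 116, 69.5 and 67.7 CPM and the KO2+MK libraries 54.3, 71.3 and 115 CPM. All 6 exceeded every untreated library of any line, but the highest and lowest of them differed widely. EGR1 in the treated pools was 5.57 times its mean in WT.

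The smaller EGR genes and ARC had few counts at baseline. EGR2 had 20 to 28 counts per treated library (mean 0.878 CPM) against 5 to 13 in the untreated pools, and EGR3 had 10 to 38 (0.799 CPM) against 3 to 7. Treated EGR2 levels overlapped those of myrAKT. For EGR3, KO1+MK (0.416 to 0.631 CPM) also overlapped myrAKT (0.389 to 0.512 CPM), whereas KO2+MK (0.740 to 1.27 CPM) lay above it. ARC had 3.41, 2.11 and 2.65 CPM in KO1+MK and 4.37, 5.73 and 9.45 CPM in KO2+MK, against 0.583 ± 0.130 CPM (n = 6) before treatment, a log2 difference of 3.01. The 2 treated pools did not overlap for ARC.

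Among the FOS genes, FOS and FOSB rose on average and FOSL1 did not. FOS had 16.6, 13.4 and 14.5 CPM in KO1+MK and 13.3, 17.3 and 27.1 CPM in KO2+MK, with a mean of 17.02 against 3.79 CPM in the untreated pools (log2 2.19). FOSB had 6.49, 6.31 and 4.64 CPM in KO1+MK and 5.15, 6.66 and 9.38 CPM in KO2+MK, with a mean of 6.44 against 2.85 CPM (log2 1.20). The level of FOSL1 was 229 ± 16.8 CPM in the treated and 264 ± 20.7 CPM in the untreated pools (n = 6 each, log2 -0.19), with overlap in KO2.

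JUNB and JUN went in opposite directions. JUNB had 62.2, 55.9 and 60.8 CPM in KO1+MK and 43.6, 55.7 and 68.5 CPM in KO2+MK, above all WT libraries, with a log2 difference of 1.56 from the untreated pools. JUN had 85.6, 100.1 and 101 CPM in KO1+MK and 110.5, 96.3 and 98.6 CPM in KO2+MK, below all untreated libraries of the study, with a log2 difference of -0.56. Per kb of exon, JUNB (32.6 in KO1+MK and 30.6 in KO2+MK) came to rank above JUN (26.4 and 28.1), with EGR1 at 26.9 and 25.6. The JUNB share of the 5 FOS and JUN genes was 17.6% ± 1.89 in KO1+MK and 16.3% ± 3.65 in KO2+MK against 6.45% ± 0.185 and 4.76% ± 0.256 before treatment, and the JUN share was 14.2% ± 0.461 and 14.9% ± 0.825 against 18.9% ± 0.575 and 23.4% ± 0.498. Of these 5 genes, without FOSL2 and JUND, FOSL1 kept the largest share, with 65.1% ± 1.96 and 64.9% ± 4.19. ATF3 had 12.4, 10.4 and 10.1 CPM in KO1+MK and 8.95, 10.4 and 15.5 CPM in KO2+MK, a log2 difference of 1.39.

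In WT terms the treated pools stood at 7.44 times the WT mean for ARC, with 4.38 in KO1+MK and 10.5 in KO2+MK. The multiple of both pools together was 3.79 for FOS, 2.85 for FOSB, 1.46 for JUNB and 1.43 for ATF3, and 0.730 for FOSL1 and 0.665 for JUN. JUNB and ATF3, which were below WT in the untreated pools, were thus above it after treatment, and FOSL1 and JUN were below it. No treated WT cells were analysed here, so an effect of MK2206 that depends on GPS2 cannot be told apart from one that does not.

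**Figure D4:**
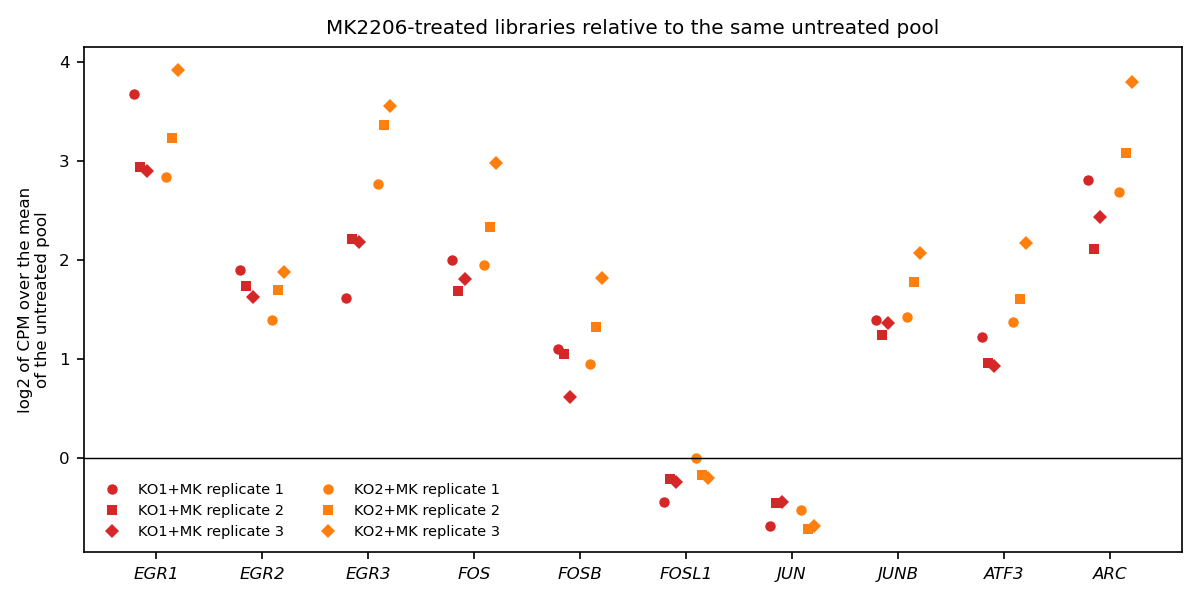
Log2 of the CPM of each treated library over the mean CPM of the same pool without MK2206, for all 10 genes, with the 3 replicates of KO1+MK and KO2+MK as separate symbols. All 6 points lie above 0 for 8 genes, and those of JUN lie below 0, while KO2+MK replicate 1 lies near 0 for FOSL1.

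Of the 8 tested members, 6 (EGR1, ARC, FOS, JUNB, ATF3 and FOSB) lay past the threshold upward in the contrast with MK2206 from which the genes were selected, beside 6.53% of all genes, 4.5% upward and 2.03% downward. The same 6 did so in KO1 (5.01% of all genes) and in KO2 (7.06%), where JUN also lay past it downward with 1.54-fold. Since this contrast chose the members, nothing is drawn from these counts. Just inside the minimum fold change was JUN in KO2, and just outside were JUN with both pools (1.48-fold) and in KO1 (1.41-fold). The treated libraries were also the shallowest, and the part of depth was not tested.

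Treated KO1 and KO2 cells were compared directly. None of the 8 members passed in edgeR, where 1.64% of all genes did. At an unadjusted p under 0.05 ARC alone was lower in KO1+MK, and DESeq2 called ARC. ARC, which was picked for its rise with MK2206 and passed the filter through these libraries, came nearest, at 2.72 ± 0.653 CPM in KO1+MK and 6.52 ± 2.63 CPM in KO2+MK (log2 -1.28, SE 0.265, edgeR adjusted p 0.00477). Without KO1+MK replicate 1 and KO2+MK replicate 3, the libraries with the highest EGR1, which were chosen after seeing the data, the log2 difference of ARC was -1.08. KO2+MK replicate 3 was the highest of the 6 treated libraries for 6 members (EGR3, FOS, FOSB, JUNB, ATF3 and ARC), and KO1+MK replicate 1 was the highest for EGR1 and EGR2 and the lowest for EGR3, FOSL1 and JUN. KO2+MK replicate 1 was the lowest for EGR1, EGR2, FOS, JUNB and ATF3 and the highest for FOSL1 and JUN.

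Other immediate early genes were read from a list of 41, of which 38 were tested. In KO against WT 9 were downregulated and 1, PPP1R15A, upregulated (8.59% and 4.07% of all tested genes were), with a median log2 fold change of -0.34 beside -0.0029 over all tested genes. The strongest were the circadian repressor BHLHE40, from 185 ± 16.9 to 83.0 ± 5.80 CPM (log2 -1.18, SE 0.0646, edgeR adjusted p 1.61e-07), and the orphan nuclear receptor NR4A1, from 3.72 ± 0.120 to 1.68 ± 0.357 CPM (log2 -1.16, SE 0.158, adjusted p 6.98e-05; n = 6 for the knockout pools). In myrAKT 8 were downregulated and 2, SGK1 and IER2, upregulated (8.83% and 4.94% of all genes were). The largest differences were in the MAP kinase phosphatase DUSP1, from 149 ± 20.6 to 43.7 ± 3.47 CPM (log2 -1.78, SE 0.0840, adjusted p 6.04e-10), and the C/EBP factor CEBPD, from 10.1 ± 0.394 to 3.95 ± 0.319 CPM (log2 -1.36, SE 0.0982, adjusted p 3.9e-08). Both were also downregulated in KO. PPP1R15A, SGK1, IER2 and the other genes listed below without a value were named after their values had been seen.

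With MK2206, 12 of these 38 genes were upregulated and 2, PLK2 and MYC, downregulated in both pools together (4.5% and 2.03% of all genes were), with a median of 0.44 beside -0.0031 over all genes. The largest differences were in the nuclear receptors NR4A3 and NR4A2, NR4A3 from 0.323 ± 0.142 to 2.39 ± 0.924 CPM (log2 2.91, SE 0.306) and NR4A2 from 3.42 ± 0.282 to 11.2 ± 1.70 CPM (log2 1.73, SE 0.0993, edgeR adjusted p 2.8e-08; n = 6 in each group). NR4A3, below 1 CPM on average in every untreated group, passed the filter on low values through the treated libraries and so had to differ. It is 1 of the 12, and its difference is given without a test. BHLHE40 rose again by 0.84 on the log2 scale (adjusted p 1.76e-07) to 146 ± 13.4 CPM, which is under its WT mean.

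Of 13 AP-1 partners and EGR coregulators, all tested, 1 was downregulated in KO and none upregulated (median log2 fold change -0.17), beside 8.59% and 4.07% of all tested genes, so that the count is near the background. This was the small AP-1 factor BATF2, from 9.30 ± 0.538 to 3.82 ± 0.980 CPM (log2 -1.30, SE 0.174, edgeR adjusted p 6.05e-05). BATF2 was also down in myrAKT (log2 -1.12, adjusted p 3.19e-07; 13.8% of all genes passed there), where its relative BATF rose from 1.65 ± 0.133 to 3.35 ± 0.106 CPM (log2 1.02, adjusted p 5.87e-05). With MK2206 in both pools together the 1 gene past the threshold in edgeR was NAB2, the corepressor that EGR proteins induce and that restrains them, from 13.3 ± 0.846 to 33.8 ± 6.90 CPM (log2 1.37, SE 0.113, adjusted p 4.27e-07, n = 6 each). This count of 1 in 13 is near the 6.53% of all genes that passed, 4.5% upward and 2.03% downward. DESeq2 called 1 further gene lower there, and edgeR called 1 higher and 1 lower in KO1 and 2 higher and 1 lower in KO2, beside 5.01% and 7.06% of all genes.

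Of 21 genes for the SRF, ETS and CREB factors and their kinases, none passed in KO in edgeR or in DESeq2, with 9 higher and 7 lower at an unadjusted p under 0.05, and 12.7% of all genes passed. In myrAKT 1 of the 21 passed, the kinase RPS6KA4 (MSK2), from 70.2 ± 2.43 to 40.01 ± 3.08 CPM (log2 -0.82, edgeR adjusted p 1.86e-08). With MK2206 its relative RPS6KA5 (MSK1) rose by 0.76 on the log2 scale (adjusted p 1.38e-07) and the SRF coactivator MRTFB fell by 0.62 (adjusted p 6.32e-06), the only 2 of the 21 past the threshold in both pools together. The share of all genes past it was 13.8% in myrAKT and 6.53% with MK2206.

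ERK output genes, a list of 19 feedback regulators and targets, showed 6 downregulated and none upregulated in KO, beside 8.59% and 4.07% of all genes (median log2 fold change -0.25). The largest were the cytokine LIF, from 103 ± 1.90 to 55.8 ± 5.01 CPM (log2 -0.90, edgeR adjusted p 8.16e-07), and PHLDA1, from 582 ± 20.6 to 326 ± 18.4 CPM (log2 -0.86, adjusted p 1.8e-07), which is also in the list of 41. In myrAKT 3 (SPRY4, EPHA4 and SPRY1) were upregulated and 1 downregulated, beside 4.94% and 8.83% of all genes (median 0.23). The ERK phosphatase DUSP5 fell by 0.96 there (adjusted p 1.82e-09) and the feedback inhibitor SPRY4 rose by 0.79 (adjusted p 2.46e-07). With MK2206 3 (SPRY4, DUSP6 and DUSP5) were upregulated and none downregulated in both pools together, beside 4.5% and 2.03% of all genes (median 0.23), with 1 of 19 upregulated in KO1, near the 5.01% of all genes that passed, and 4 in KO2, where 7.06% did. In both pools together SPRY4 was up by 0.85 (adjusted p 3.64e-05) and the ERK phosphatase DUSP6 by 0.69 (adjusted p 2.65e-06).

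Stress programmes in which ATF3 takes part were read from 2 further lists. Of 10 tested integrated stress response genes, 4 (DDIT4, ASNS, VLDLR and CHAC1) were downregulated and 1, PPP1R15A, upregulated in KO, beside 8.59% and 4.07% of all genes (median log2 fold change -0.41), with the mTORC1 inhibitor DDIT4 falling from 79.4 ± 9.17 to 27.1 ± 4.35 CPM (log2 -1.57, edgeR adjusted p 8.99e-07) and asparagine synthetase ASNS from 131 ± 8.38 to 48.9 ± 16.0 CPM (log2 -1.44, adjusted p 7.91e-05). ASNS was the 1 gene of 10 past the threshold in myrAKT (log2 -0.60, adjusted p 3.48e-05), a count near the 8.83% of all genes that were lower. With MK2206 in both pools together SESN2 alone of the 10 passed, upward by 1.22 (adjusted p 5.57e-06), beside 4.5% of all genes upward, whereas 2 of the 10 were upregulated in KO1 and 4 in KO2, where 5.01% and 7.06% of all genes passed in either direction. Of 11 heat shock genes 1, HSPA1A, was down in KO (log2 -0.84, adjusted p 0.000182) and in myrAKT (-0.94, adjusted p 1.82e-05), a count near the 8.59% and 8.83% of all genes that were lower in these comparisons. With MK2206 3 (HSPA1B, DNAJB1 and HSPA1A) were upregulated, beside 4.5% of all genes, led by HSPA1B (log2 1.12, adjusted p 3.8e-05) and the cochaperone DNAJB1 (0.94, adjusted p 9.78e-07). HSPA1A and HSPA1B are nearly identical, so reads could have been assigned to either.

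The genes whose log2 CPM was most like that of EGR1 over the 18 libraries were MTF1 (Pearson r 0.988), PLEKHM3 (0.985), MGAM (0.984), EIF2AK3 (0.983) and TEP1 (0.982). MGAM, a glucosidase, was at 0.287 CPM in WT, 0.252 in KO1, 0.172 in KO2 and 0.436 in myrAKT, and at 4.08 in KO1+MK and 4.67 in KO2+MK. MGAM passed the filter only through the treated libraries, which favours its likeness to EGR1. MTF1, the zinc-responsive factor, went from 29.1 to 48.9 CPM in KO1 and from 29.9 to 52.4 CPM in KO2. Among the genes most like ARC were DSEL (0.985), WDR47 (0.984) and ING1 (0.984), of which WDR47 had 79.4 CPM in KO1+MK and 98.9 CPM in KO2+MK against 45.2 to 47.0 CPM in the 4 untreated conditions. These r values rest mainly on the separation of the 6 treated from the 12 untreated libraries, which also differ in depth, and are given without a test.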

How the data were processed

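Ribosome-depleted RNA from 18 samples was sequenced as paired ends in 1 pool over 2 runs. The deposited values are raw counts per Ensembl gene, which the authors made with FastQC, Trim Galore, HISAT2 on hg38 and featureCounts. Versions, annotation and strand setting are not given in the sources used here. Symbols, exon lengths and overlaps came from GENCODE release 44, and promoter windows from RefSeq.

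The 15587 genes that reached 1 CPM in 3 or more of the 18 libraries were tested in R 4.3.3 with edgeR 4.0.16 (quasi-likelihood test on TMM-normalized counts, Benjamini-Hochberg adjustment). The fit held only the groups compared. Calls needed a fold change of 1.5 or more and an adjusted p no higher than 0.001. CPM used TMM library sizes, and log2 CPM for likeness a prior count of 2. All members are named, with the 2 largest called changes per list in KO, myrAKT and MK2206 and the 5 genes most like EGR1 and ARC, of which 2 are not reported here. Members and lists were chosen with earlier results of these data known. DESeq2 1.42.0 and other normalizations, filters and thresholds were alternatives. Replicates differed beyond counting error (mean chi-square per gene 2.14 to 9.78). The code was tested on simulated data. Figures used matplotlib 3.10.9.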

Additional observations from a re-analysis of the deposited data

Results flagged for a closer look

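FOS in KO2+MK replicate 3, at 27.1 CPM, stood apart from the other 5 of the 6 treated libraries by Dixon's test. It was the single library so marked among 20 groups of 6 examined, and chance marks about 1 in 20.

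The effect of the knockout on JUNB was smaller in KO1 than in KO2, by 0.53 on the log2 scale in the edgeR comparison of the pools (adjusted p 1.16e-06). The effect on JUN in KO1 less that in KO2 was -0.22 (adjusted p 0.000498). Neither reached the minimum fold change of 1.5, and the libraries of the pools did not overlap for either gene.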

How the results depend on the processing

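The members' fold changes and calls were recomputed under the alternatives. Of these values, 1192 were counted as unchanged, 12 lost a call, 20 gained one and 31 turned sign, none of which had been called. The other value, EGR1 with MK2206 in KO1, moved to 2.93 without KO1+MK replicate 1. For MK2206, unchanged means that the log2 fold change moved by less than the spread between libraries, and calls were not compared. Elsewhere it means the same direction and side of the threshold. The causes of the changes were not tested. EGR1 and FOS in myrAKT against WT turned positive with upper-quartile scaling (0.042 and 0.044), library totals (0.044 and 0.045) and all 18 libraries in 1 fit (0.0037 and 0.0049). JUN in KO against WT was 0.0081 without the filter. With KO1+MK replicate 1 and KO2+MK replicate 3 left out, chosen after seeing the data, FOSL1 (0.013) and ATF3 (0.080) turned in KO1+MK against KO2+MK. ATF3 was downregulated in KO by DESeq2 (adjusted p 3.31e-05) and in the 18-library fit (4.36e-06). In edgeR ATF3 was also called in KO without the filter (adjusted p 4.51e-05) and with KO1 and KO2 as separate groups (1.86e-07). That last fit called 3 members.

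Replicate numbers did not pair the libraries: 0 of 15 pairs of groups had every same-number correlation above 0.1, and 5 of 18 libraries correlated best with their own number. With the number as a replicate block, EGR1 and FOS in myrAKT were 0.00078 and 0.011, 1 member (ATF3) passed in KO1 against KO2, and the genes called in KO1+MK against KO2+MK went from 255 to 130. Outside the comparisons with MK2206, the block changed no other call of a member.

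Of members called, KO1 against WT gave 1 instead of 3 with all 18 libraries in 1 fit, and myrAKT against WT gave 2 without a minimum fold change. KO1 against KO2, with 0, gave 1 by DESeq2, without the filter and at an adjusted p of 0.05, and 2 without a minimum fold change. KO1+MK against KO2+MK, with 0, gave 1 (ARC) by DESeq2, without the filter, with all 18 libraries, at an adjusted p of 0.05, and with both libraries named above left out. Genes called rose without a minimum fold change from 1974 to 5006 in KO, 2162 to 6506 in KO1, 2608 to 6715 in KO2, 2146 to 4677 in myrAKT, 408 to 1964 in KO1 against KO2, 255 to 772 in the treated pools, and 1018 to 3352, 781 to 2985 and 1100 to 3416 for MK2206 in KO, KO1 and KO2. At an adjusted p of 0.05 they were 734 in KO1 against KO2, 563 in the treated pools, 1359 for MK2206 in KO1 and 1661 in KO2. Without the filter they were 638 in KO1 against KO2 and 435 in the treated pools.

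Leaving out 1 library at a time, log2 fold changes ranged from -0.069 to 0.031 for JUN and from -0.18 to 0.0093 for ARC in KO, and from -0.22 to 0.036 for FOS in KO1. In myrAKT they ranged from -0.082 to 0.063 for EGR1, -0.082 to 0.16 for FOS, -0.32 to 0.093 for FOSB and -0.20 to 0.18 for ARC. In KO1+MK against KO2+MK they ranged from -0.23 to 0.42 for EGR1, -0.054 to 0.052 for FOSL1, -0.075 to 0.27 for JUNB and -0.26 to 0.18 for ATF3, where 151 genes were called without KO2+MK replicate 2. Members called ranged from 2 to 3 in KO and KO1 and stayed at 3 in KO2 and 1 in myrAKT. For MK2206, the contrast that chose the members, they ranged from 6 to 7 in KO, 5 to 6 in KO1 and 6 to 7 in KO2. ARC, EGR2 and EGR3 had few counts, which limits what could be detected for them. Intervals and counts cover the spread of 3 libraries per condition.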
